A study of Mus musculus with 2 samples.

Results

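The 10 genes described here act in receptor-mediated uptake by the intestinal epithelium and in vitamin B12 and folate transport, and were followed in ribosome footprints from mouse ileum, the final segment of the small bowel. They are the apical receptor genes Cubn, Amn and Lrp2, the adaptor gene Dab2, the vitamin B12 (cobalamin) genes Tcn2, Cd320 and Lmbrd1, the folate carriers Slc46a1 and Slc19a1, and the IgG receptor gene Fcgrt. They were taken by symbol from a list, and all 10 were found among 22756 gene rows. The comparison was between 1 library from wild-type C57BL/6 mice at postnatal day 21 that had been fasted for 48 h and 1 library from fed mice of the same strain, genotype and age. The sources used here do not give how many animals stand behind each library or whether they were pooled. The study examined how feeding state bears on mRNA translation in this tissue.

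In the terminal ileum, vitamin B12 bound to gastric intrinsic factor is taken up by cubam, a complex of cubilin (Cubn), a large peripheral ligand-binding protein without a membrane span of its own, and amnionless (Amn), the membrane protein that carries cubilin to the apical surface. Megalin (Lrp2), a giant receptor of the LDL receptor family, works beside cubam in kidney proximal tubule, and disabled-2 (Dab2) is the clathrin adaptor that binds the tails of such receptors. Inside the cell the vitamin leaves the lysosome, passes into blood on transcobalamin (Tcn2), and enters other cells through the transcobalamin receptor (Cd320). Dietary folate enters enterocytes mainly through the proton-coupled carrier Slc46a1, best known from the proximal small intestine, whereas Slc19a1 is the widely expressed reduced folate carrier. The neonatal Fc receptor (Fcgrt) carries maternal IgG across the gut of suckling rodents.

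A footprint is the stretch of mRNA that a ribosome protects from nuclease, so its count mixes mRNA amount with how heavily the mRNA was translated. With no matched mRNA library used here, these cannot be told apart, nor can fewer cells of a type be told apart from less RNA per cell. Gene counts totalled 5434252 in the fasted library and 5558620 in the fed library. With 1 library per condition there is no replicate error, no test between conditions and no p-value. Each difference is between these 2 libraries, and the 95% intervals cover counting error only. Counts were scaled between libraries with TMM, which sets the typical gene near a ratio of 1, and ratios are given as fasted/fed. Plain CPM, which divides by total gene counts, lowers every log2 ratio by 0.32. A gene was counted as higher or lower when it had at least 30 counts in sum, differed by at least 1.5-fold and had an interval excluding 1. The ileal genes Fabp6 and Slc10a2 were abundant in both libraries (16615 and 2390 counts in the fasted library, 28873 and 2458 in the fed library), as were all 11 epithelial markers, which together took 2.60% of fasted and 2.58% of fed gene counts.

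Start-site regions of the 2 cubam subunit genes and the 2 folate carriers are shown because these pairs carry the main patterns, the first moving together and the second apart. Each runs from 250 bases before the annotated start to 50 after it (RefSeq, GRCm38.p6, the assembly of mm10). Capitals mark matches to any of 4 motifs searched on both strands: GTAAACA (FOXO), CACGTG (E-box), TTTATNG (CDX) and CAAAGTCCA (HNF4).
Cubn, chr2:13491827-13492126, minus strand: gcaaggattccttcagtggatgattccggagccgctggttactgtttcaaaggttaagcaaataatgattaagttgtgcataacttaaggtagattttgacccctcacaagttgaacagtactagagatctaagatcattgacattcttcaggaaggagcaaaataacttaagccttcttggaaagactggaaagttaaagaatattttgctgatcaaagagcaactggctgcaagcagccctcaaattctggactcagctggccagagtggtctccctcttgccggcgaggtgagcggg
Amn, chr12:111270846-111271145, plus strand: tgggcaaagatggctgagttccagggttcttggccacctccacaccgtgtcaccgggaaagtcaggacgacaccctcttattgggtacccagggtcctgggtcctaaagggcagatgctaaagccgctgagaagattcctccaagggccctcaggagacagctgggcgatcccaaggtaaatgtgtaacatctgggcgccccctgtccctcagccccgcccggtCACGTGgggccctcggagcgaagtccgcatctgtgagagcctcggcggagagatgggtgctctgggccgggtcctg
Slc46a1, chr11:78465451-78465750, plus strand: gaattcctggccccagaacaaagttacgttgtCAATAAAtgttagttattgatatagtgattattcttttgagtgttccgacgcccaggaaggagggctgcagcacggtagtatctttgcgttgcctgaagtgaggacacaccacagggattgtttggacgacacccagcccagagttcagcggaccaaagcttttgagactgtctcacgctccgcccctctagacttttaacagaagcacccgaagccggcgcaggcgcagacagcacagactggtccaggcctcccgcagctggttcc
Slc19a1, chr10:77032489-77032788, plus strand: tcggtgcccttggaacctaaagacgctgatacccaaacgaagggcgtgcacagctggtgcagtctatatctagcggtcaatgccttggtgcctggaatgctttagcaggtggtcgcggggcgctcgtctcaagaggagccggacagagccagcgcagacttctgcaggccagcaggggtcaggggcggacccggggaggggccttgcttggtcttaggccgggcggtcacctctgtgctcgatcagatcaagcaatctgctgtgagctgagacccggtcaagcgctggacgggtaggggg
RefSeq start-site regions were matched for 9 of the 10 genes (13 regions, since 4 genes have more than 1). The Amn region held CACGTG, which 7.15% of all 32851 such regions hold, starting 26 bases before the start site. The Slc46a1 region held a match to TTTATNG (10.9% of regions), read on the opposite strand, and the Fcgrt region, not shown, held GTAAACA (3.65%). The printed Cubn and Slc19a1 regions held none of the 4, and CAAAGTCCA (0.475% of regions) was in no region of the 10 genes. Slc19a1 has another region, not shown (chr10:77032962-77033261), which also held none of the 4. No motif was found in regions of more than 1 of the 10 genes. The Cubn region was 44.3% G and C and the Amn region 62.3%, against a median of 52.7% over all regions.

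All 10 genes passed the minimum count. Relative to the fed library, 5 were higher in the fasted library (Cubn, Amn, Dab2, Tcn2 and Slc19a1), 1 was lower (Slc46a1) and 4 were neither (Lrp2, Cd320, Lmbrd1 and Fcgrt). Among all 11333 genes with at least 30 counts, 17.2% were higher and 17.3% lower by the same rule. The median log2 ratio of the 10 genes was 0.73 (0.5 counts added to each count), beside 0.0024 for all measured genes. With plain CPM the same 5 genes were higher and the same gene lower, against a background of 8.86% higher and 31.2% lower.

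**Figure D1:**
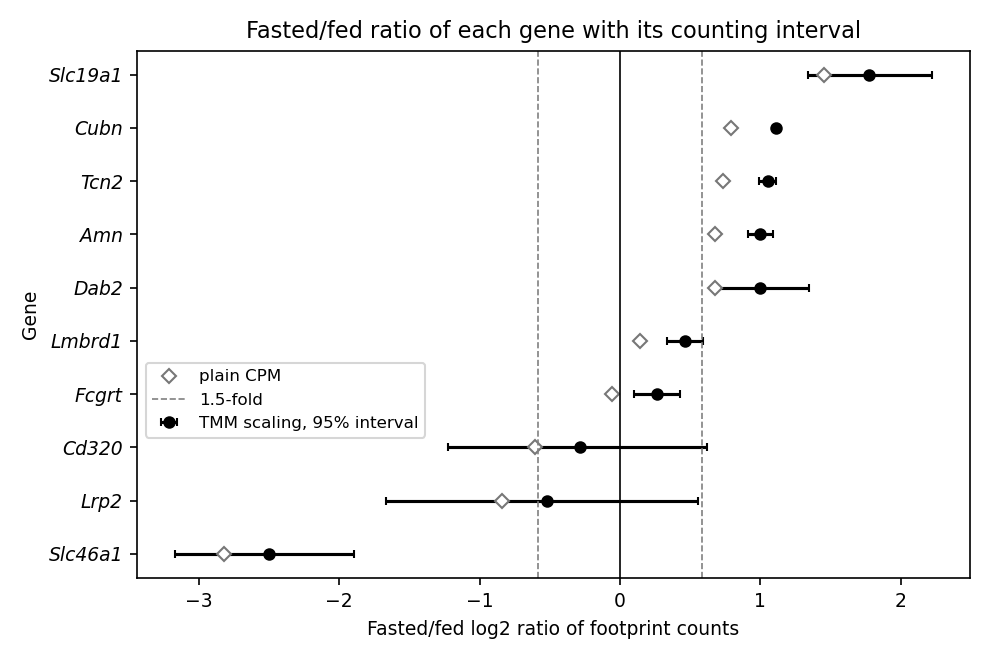
Fasted/fed log2 ratio of footprint counts for each of the 10 genes (filled points, TMM scaling, with 95% exact counting intervals; open diamonds, plain CPM; dashed lines, 1.5-fold; 1 library per condition). Slc19a1 lies farthest right at 1.77 and Slc46a1 farthest left at -2.50, with Cubn, Tcn2, Amn and Dab2 together near 1.

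Among the apical receptors, both cubam subunits were about 2-fold higher in the fasted library. Cubn had 40302 counts in the fasted library and 23860 in the fed library, or 8293 and 3839 TMM-scaled CPM. The ratio was 2.16 (95% interval 2.13 to 2.20), a log2 ratio of 1.11. By raw count, which favours long coding sequences such as its 10869 bases, Cubn was the 11th most abundant gene row of the fasted library and the 18th of the fed library, and it alone took 0.742% of fasted and 0.429% of fed gene counts. Amn had 2527 counts in the fasted library and 1615 in the fed library, or 520 and 260 scaled CPM. Its ratio was 2.001 (interval 1.88 to 2.13). Cubn lies on chromosome 2 (13276338 to 13491813, minus strand, ENSMUSG00000026726, mm10) and Amn on chromosome 12 (111271095 to 111276426, plus strand, ENSMUSG00000021278).

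The ratio of one subunit to the other within a library does not depend on the scaling between libraries. Per kb of coding sequence, Amn had 0.496 times the footprint level of Cubn in the fasted library and 0.535 times in the fed library. The ratio of Amn to Cubn counts was thus 0.926-fold in the fasted relative to the fed library (95% exact interval 0.868 to 0.989). The interval narrowly excludes 1, but the shift is small beside the 2-fold difference that both subunits share.

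Dab2, the adaptor (chromosome 15, 6299788 to 6440712, ENSMUSG00000022150), was far lower in level and had nearly the same ratio. It had 181 counts in the fasted library and 116 in the fed library, with a ratio of 1.996 (interval 1.57 to 2.54). Dab2 counts per Cubn count were 0.924-fold in the fasted relative to the fed library (0.727 to 1.18), an interval that includes 1. Per kb, the Cubn level was 47.1 times that of Dab2 in the fasted library and 43.5 times in the fed library.

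Lrp2 (chromosome 2, 69424340 to 69586065, ENSMUSG00000027070), by contrast, had few footprints. There were 12 counts in the fasted library and 22 in the fed library over a coding sequence of 13980 bases, the longest of the 10. The ratio was 0.70 (interval 0.31 to 1.47), and this depth could not show a difference. Per kb its level was 0.177 scaled CPM in the fasted library and 0.253 in the fed library, so Cubn stood 4320 and 1395 times higher. Of 11110 measured genes with an annotated coding length, Lrp2 ranked 11108th in the fasted and 11103rd in the fed library by level per kb. Genes below the minimum count were left out of that ranking. A gene that only just passes the minimum with so long a coding sequence must fall near its bottom. The rank therefore does not place Lrp2 among all gene rows. Lrp2 counts per Cubn count were 0.323-fold in the fasted relative to the fed library (0.146 to 0.682), an interval that excludes 1. That shift takes in the Cubn ratio of 2.16, and the interval of Lrp2 alone included 1, so it shows no change of Lrp2 itself.

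**Figure D2:**
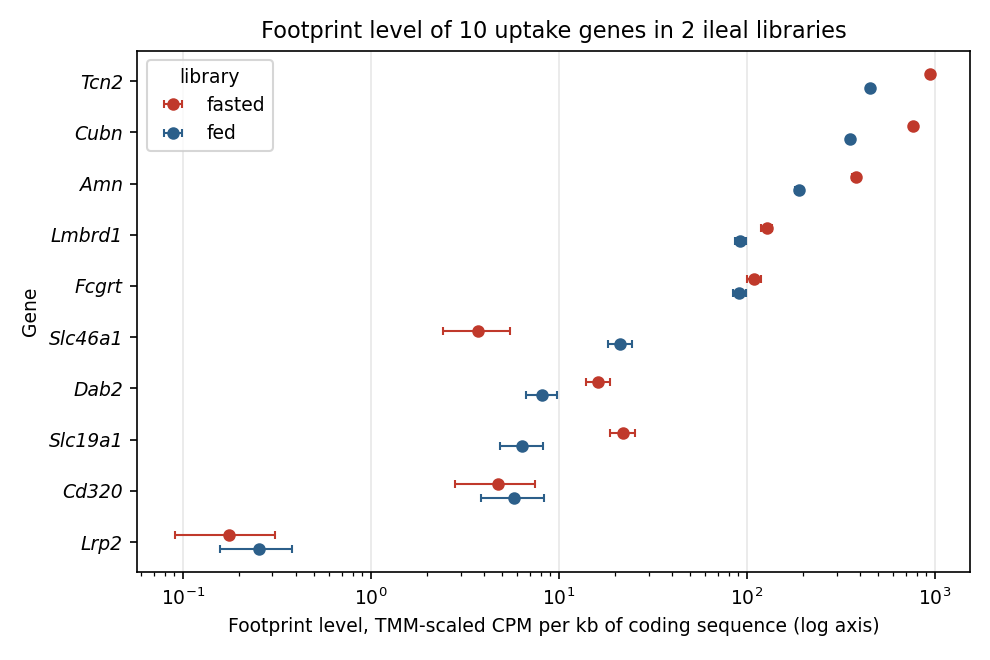
Footprint level of the 10 genes in TMM-scaled CPM per kb of coding sequence, on a log axis, in the fasted (red) and fed (blue) library, with 95% exact Poisson intervals. Tcn2, Cubn and Amn are the 3 highest in both libraries and Lrp2 the lowest; Slc46a1 and Slc19a1 exchange places.

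Of the vitamin B12 carriers, Tcn2 was high and Cd320 low in both libraries. Tcn2, which carries the vitamin in blood (chromosome 11, 3917192 to 3932159, ENSMUSG00000020432), had 5894 counts in the fasted library and 3631 in the fed library, a ratio of 2.08 (interval 1.99 to 2.16). Per kb it had the highest level of the 10 genes, 940 scaled CPM in the fasted library and 453 in the fed library. Cd320, the receptor for the transcobalamin complex (chromosome 17, 33843091 to 33849774, ENSMUSG00000002308), had 18 counts in the fasted library and 28 in the fed library, and its ratio of 0.82 (0.43 to 1.54) showed no detectable difference. Tcn2 per Cd320 count was 2.53-fold in the fasted relative to the fed library (1.35 to 4.85), an interval set by the few Cd320 counts. Lmbrd1, a lysosomal membrane protein needed for cobalamin to leave the lysosome (chromosome 1, 24678630 to 24766301, ENSMUSG00000073725), had 996 counts in the fasted library and 924 in the fed library. Its ratio of 1.38 (1.26 to 1.51) excluded 1 without reaching 1.5-fold, and was 1.10 with plain CPM (log2 interval 0.010 to 0.27). Lmbrd1 per Cd320 count was 1.68-fold in the fasted relative to the fed library (0.888 to 3.24), an interval that includes 1.

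The folate carriers showed opposite differences, the largest among the 10 genes. Slc46a1, the proton-coupled carrier, had 25 counts in the fasted library and 181 in the fed library, or 5.14 and 29.1 scaled CPM. It was 5.66-fold lower in the fasted library (interval 3.71 to 8.98). Only 0.750% of measured genes had a lower ratio. Slc19a1, the reduced folate carrier, had 163 counts in the fasted library and 61 in the fed library, or 33.5 and 9.81 scaled CPM. It was 3.42-fold higher in the fasted library (2.53 to 4.67), and 97.8% of measured genes had a lower ratio.

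The order of the carriers was therefore exchanged. Per kb of coding sequence, Slc19a1 stood at 5.85 times the level of Slc46a1 in the fasted library and 0.302 times in the fed library. The ratio of Slc19a1 to Slc46a1 counts was 19.3-fold in the fasted relative to the fed library (95% exact interval 11.3 to 33.5), the largest shift of the 7 pairs compared. Slc46a1 lies on chromosome 11 (78465697 to 78472059, plus strand, ENSMUSG00000020829) and Slc19a1 on chromosome 10 (77032241 to 77061002, plus strand, ENSMUSG00000001436). No annotated exon of another gene overlapped the coding exons of either.

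**Figure D3:**
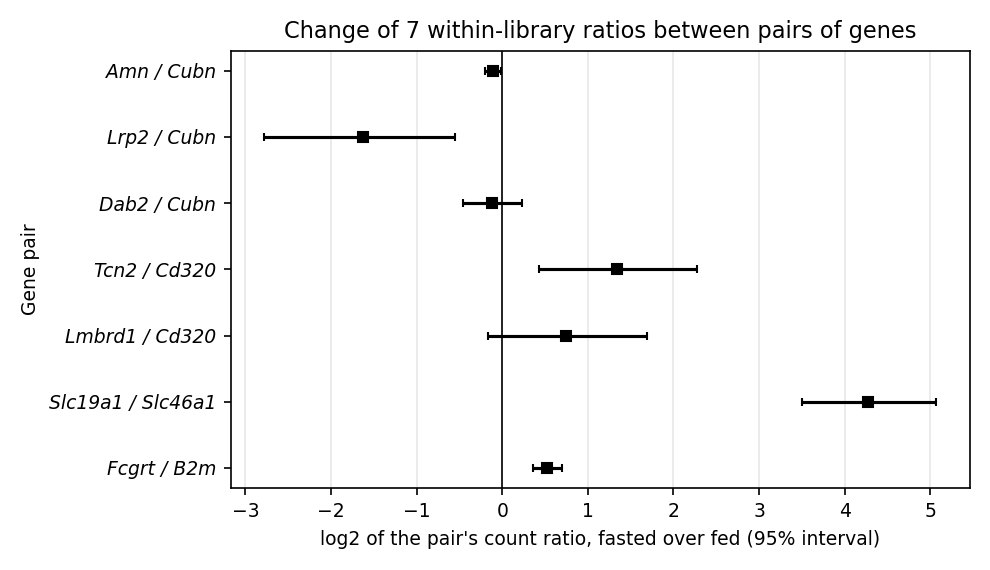
Change between libraries of the count ratio of 7 gene pairs, as log2 of the fasted over the fed ratio, with 95% exact conditional intervals. Slc19a1/Slc46a1 stands at 4.27, Lrp2/Cubn lies below 0 at -1.63, and Amn/Cubn and Dab2/Cubn lie near 0.

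Fcgrt (chromosome 7, 45092990 to 45103851, ENSMUSG00000003420) had 588 counts in the fasted library and 626 in the fed library. The ratio was 1.20 with TMM (interval 1.07 to 1.35) and 0.961 with plain CPM (log2 interval -0.22 to 0.11), so its direction depends on the scaling. B2m, the light chain that Fcgrt needs, had 7540 counts in the fasted library and 11564 in the fed library, a log2 ratio of -0.26 (-0.30 to -0.22). Within a library, Fcgrt counts per B2m count were 1.44-fold in the fasted relative to the fed library (1.28 to 1.62). B2m also serves MHC class I, and its level per kb was 39.8 times that of Fcgrt in the fasted library and 57.3 times in the fed library.

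By level per kb in the fasted library, Tcn2, Cubn and Amn were followed by Lmbrd1 (127 scaled CPM), Fcgrt (109), Slc19a1 (21.8), Dab2 (16.2), Cd320 (4.75), Slc46a1 (3.74) and Lrp2. In that order the counting intervals of neighbours overlapped for Slc19a1 and Dab2 and for Cd320 and Slc46a1. In the fed library the order after Amn was Lmbrd1 (92.3), Fcgrt (91.0), Slc46a1 (21.1), Dab2 (8.12), Slc19a1 (6.39), Cd320 (5.78) and Lrp2. There the intervals overlapped for Lmbrd1 and Fcgrt and among Dab2, Slc19a1 and Cd320. Tcn2, Cubn and Amn were thus within the top 5% of measured genes by level per kb in both libraries (1.22%, 1.43% and 2.97% from the top in the fasted library, 1.94%, 2.48% and 4.99% in the fed library).

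Among the genes whose scaled CPM lay nearest to Cubn in both libraries, by Euclidean distance on the log2 scale and without regard to length, were Zg16, Naaladl1, Fabp2 and Vil1. They encode a goblet cell lectin, a peptidase-like protein of the ileum, the intestinal fatty acid binding protein and the microvillus protein villin. With 2 libraries this likeness is one of level alone. Fabp2 had a higher ratio than Cubn (log2 1.67, interval 1.65 to 1.70), while Naaladl1 (0.44), Zg16 (0.53) and Vil1 (0.65) had lower ones.

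Genes that act on cobalamin beyond its uptake did not share the Cubn ratio. List counts here and below are to be read against the shares of all measured genes, 17.2% higher and 17.3% lower (8.86% and 31.2% with plain CPM). Of 10 measured genes of cellular B12 handling, 1 was higher and 3 were lower in the fasted library, with 6 neither, at a median log2 ratio of -0.33 (0 higher, 5 lower and a median of -0.66 with plain CPM). The higher gene was Mmadhc, which directs cobalamin towards its target enzymes (474 counts in the fasted library and 347 in the fed library, log2 ratio 0.81, interval 0.60 to 1.01). Mmaa, a chaperone of mitochondrial cobalamin, had 27 counts in the fasted library and 82 in the fed library (-1.25, -1.93 to -0.60). Mcee, the methylmalonyl-CoA epimerase, had 53 and 134 counts in the fasted and fed library (-0.98, -1.47 to -0.51), and Mmab, which makes adenosylcobalamin, 13 and 35 (-1.07, -2.12 to -0.12). Mut, the B12-dependent mutase, and Mtr, the B12-dependent methionine synthase, had log2 ratios of 0.19 (-0.01 to 0.39) and -0.23 (-0.69 to 0.23). Abcd4, the lysosomal partner of Lmbrd1, had a log2 ratio of 0.40 (0.04 to 0.76), close to the 0.46 of Lmbrd1. Gif, the gene for intrinsic factor, had no count in either library, which allows up to 0.617 scaled CPM in the fasted and 0.483 in the fed library.

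Among genes that store and use folate, 1 of 11 measured was higher and 3 were lower in the fasted library, with 7 neither (median -0.21; 0 higher, 5 lower and a median of -0.54 with plain CPM). The lower genes were Mthfd2, a mitochondrial folate dehydrogenase (16 counts in the fasted library and 68 in the fed library, log2 ratio -1.73, interval -2.62 to -0.93), Tyms, thymidylate synthase (45 and 147 counts in the fasted and fed library, -1.35, -1.87 to -0.86), and Mthfd1, a cytosolic folate enzyme (-0.69, -0.87 to -0.51). Aldh1l1, which oxidises formyl-tetrahydrofolate, was the higher gene (1577 counts in the fasted library and 1234 in the fed library, 0.71, 0.60 to 0.82; 0.39 with plain CPM). The membrane folate receptor genes had few footprints, with 4 and 5 counts for Folr1 and 7 and 2 for Folr2 in the fasted and fed library. Folh1, the brush border enzyme that trims dietary folate in human jejunum, had 4 counts in the fasted library and 0 in the fed library. These 3 were below the minimum count.

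The general endocytic machinery was mostly level. Of 24 measured genes for clathrin coats, AP2 adaptors and recycling, 2 were higher and 0 lower in the fasted library, with 22 neither, at a median log2 ratio of 0.024 (1 higher, 4 lower and a median of -0.30 with plain CPM). The 2 were Ehd1, a recycling ATPase (1877 counts in the fasted library and 1235 in the fed library, 0.96, 0.85 to 1.06), and Epn1, a coat adaptor (0.61, 0.43 to 0.79). Cltc, the clathrin heavy chain, had a log2 ratio of 0.08 (0.04 to 0.12), and Lrpap1, the chaperone of megalin and its relatives, had -0.21 (-0.49 to 0.07). Of 11 lysosomal genes, 4 were higher and 0 lower (median 0.38; 2 higher and a median of 0.058 with plain CPM). They included the proteases Ctsl (1.24, 1.10 to 1.38) and Lgmn (0.99, 0.87 to 1.11) and the sialidase Neu1 (0.77, 0.62 to 0.91).

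Per kb, the 7 other LDL receptor family genes with at least 30 counts had higher levels than Lrp2 in both libraries, from 3.61 (Vldlr) to 79.8 scaled CPM (Lrp1) in the fasted library and from 1.17 (Vldlr) to 91.7 scaled CPM (Lrp1) in the fed library. Lrp1b and Lrp8 fell below that minimum and so were left out. Lrp1b had 4 counts in the fasted and 1 in the fed library (0.0597 and 0.0117 scaled CPM per kb). Lrp8 had 2 and 5 (0.138 and 0.269). On these few counts, Lrp1b lay below Lrp2 in both libraries and Lrp8 in the fasted library only. Of the 7, 1 was higher and 2 were lower in the fasted library, with 4 neither, at a median of -0.20. With plain CPM, 1 was higher and 3 were lower, at a median of -0.52. Sorl1, a sorting receptor, was among the lower ones, with 595 counts in the fasted library and 1159 in the fed library (-0.61, -0.75 to -0.46). Vldlr, a lipoprotein and reelin receptor, was the higher one, with 46 and 19 counts in the fasted and fed library (1.63, 0.83 to 2.48). Among the 7 partners of immunoglobulin transport, 1 was higher and 2 lower (median -0.26; 0 and 3, at -0.58, with plain CPM). Pigr, which carries IgA the other way, had -0.48 (-0.50 to -0.45), and Jchain, its joining chain ligand, -1.14 (-1.22 to -1.05).

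**Figure D4:**
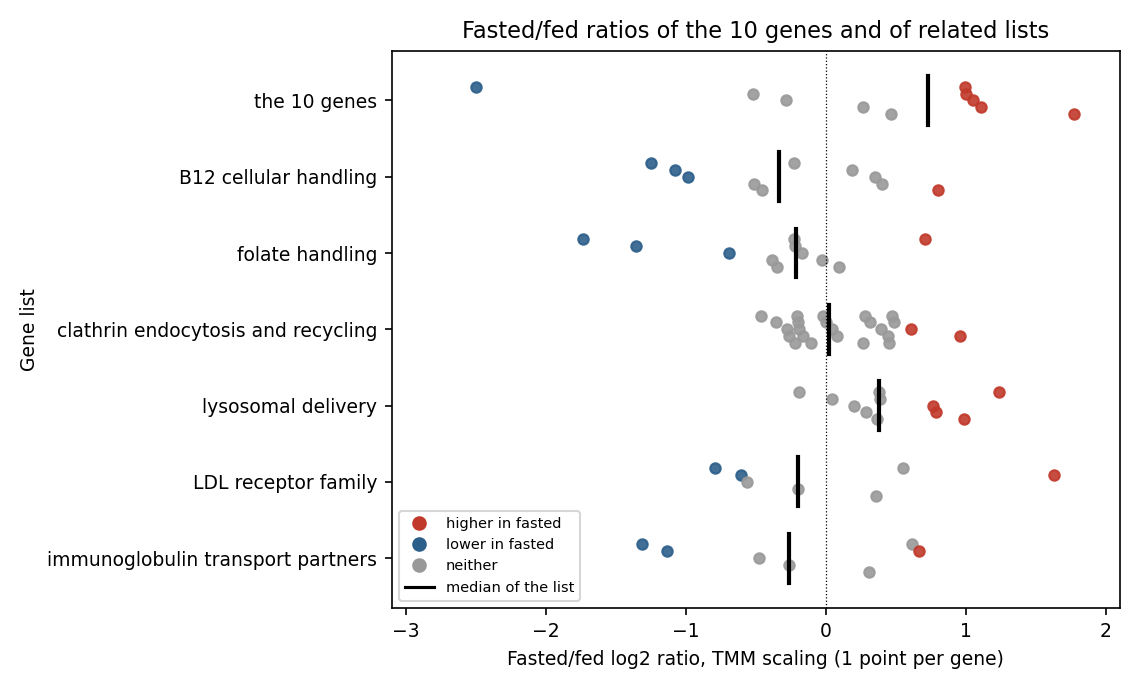
Fasted/fed log2 ratios (TMM scaling) of the 10 genes and of 6 related lists, 1 point per gene with at least 30 counts, coloured by the 1.5-fold rule, with the median of each list as a black bar. Among the lists drawn, the 10 genes have the highest median, 0.73, with Slc46a1 as the leftmost point. The clathrin list has its median at 0.024. The suckling and weaning markers, not drawn, had a median of 1.36.

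Markers of cell types moved as well, and their part in these results was not tested. Summed over all 11 epithelial markers, scaled CPM was 29024 in the fasted library and 23030 in the fed library, and 4 were higher, 1 lower and 6 neither (1 higher and 3 lower with plain CPM). Against that summed epithelial count within each library, Cubn was 1.71-fold higher in the fasted library (95% exact interval 1.68 to 1.74), Amn 1.59-fold (1.49 to 1.69), Tcn2 1.65-fold (1.58 to 1.72), Dab2 1.58-fold (1.25 to 2.02) and Slc19a1 2.71-fold (2.01 to 3.70). Slc46a1 stood at 0.140-fold on that measure (0.0884 to 0.214), and Fcgrt at 0.953-fold (0.850 to 1.07). Of the 7 genes that mark the suckling or the weaned epithelium, 6 were higher and 0 lower, at a median of 1.36 (5 higher with plain CPM). They include Lct, lactase, of the suckling period (1.78, 1.74 to 1.82) and Sis, sucrase-isomaltase, of the weaned one (1.60, 1.58 to 1.61). Prdm1, a transcriptional repressor of the suckling epithelium, had 0.10 (-0.34 to 0.54).

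Dab2, Tcn2 and Fcgrt are also known from macrophages or endothelium. The 12 macrophage markers summed to 833 scaled CPM in the fasted library and 686 in the fed library, with 3 higher, 1 lower and 8 neither (2 higher and 3 lower with plain CPM). The highest was Cd163, a scavenger receptor (2.41, 1.99 to 2.84), while Csf1r, which defines the lineage, had 0.07 (-0.08 to 0.21). The 11 endothelial markers summed to 677 scaled CPM in the fasted library and 427 in the fed library, and 5 of 10 measured were higher and 0 lower (3 higher with plain CPM). No marker of either list was at 0 in either library. Smooth muscle and fibroblast markers summed to 3877 scaled CPM in the fasted library and 8203 in the fed library, with 2 of 11 higher and 9 lower (0 and 9 with plain CPM). Of 8 proliferation markers 6 were lower and 0 higher (8 lower with plain CPM), Mki67 among them (-1.27, -1.41 to -1.12). All 6 B lineage markers were lower, as was 1 of 4 measured mesothelial markers, Krt7 (-1.02, -1.17 to -0.87; 2 lower with plain CPM).

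Multiply aligned reads went to no gene, so sequence shared with other genes can bear on a count. Windows of each coding sequence were compared with annotated transcripts on both strands, not with the genome. The shares below are therefore no measure of reads lost to multiple alignment. In 9 of the 10 genes, every 28-base window of the longest coding sequence was absent from transcripts of other annotated genes. For Cubn 97.0% of windows were. There, 368 coding bases lie opposite exons of Gm13270, an antisense gene listed without a count in both libraries, and the sources used here do not say whether counting used strand. Such bases share the same place in the genome, so they do not by themselves make a read align to several places.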

How the data were processed

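The deposited files hold raw footprint counts per gene symbol, not normalised by the authors. Per the submitters' processing notes, Bowtie 1.1.2, STAR, HTSeq and cutadapt were used with the build mm10, in no stated order. The sources used here name no annotation or strand setting. Totals of unassigned reads were left out of library sizes: of all reads, 20.98% in the fasted and 13.38% in the fed file overlapped no feature, and 39.9% in the fasted and 41.4% in the fed file aligned to several places. NA was read as 0.

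Symbols were matched to GENCODE vM21 (21943 rows) for coordinates and coding lengths. Library sizes were scaled with TMM (edgeR 4.0.16, R 4.3.3; used for scaling only). Ratio intervals are exact Clopper-Pearson on the split of a gene's counts, levels have exact Poisson intervals, and pair ratios have exact conditional odds ratio intervals (scipy 1.17.1). PCR copies are not independent molecules. The functions were tested on simulated libraries. The 10 genes, the 14 other lists and the motifs were chosen with earlier results of these data known, and Fabp6 and Slc10a2 after their values were seen. All members and any listed gene could be named, beside the 5 genes nearest to Cubn. A few genes of this rule are not reported here.

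Other settings tried were DESeq2 1.42.0 median-ratio size factors, plain CPM, upper-quartile factors, scaling to the epithelial list, other minimum counts (none, 200), a 2-fold threshold, wider intervals, 2 added counts, and the union of coding exons as length.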

Additional observations from a re-analysis of the deposited data

How the results depend on the processing

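The 5 genes that were higher in the fasted library and the 1 that was lower kept their calls with plain CPM, median-ratio and upper-quartile factors, scaling to the epithelial list, no minimum or 200 counts, and wider intervals. With a 2-fold threshold 4 were higher, since Dab2 fell just short at 1.996. The sign of Fcgrt, which was not called, turned with plain CPM (log2 ratio -0.058) and with scaling to the epithelial list (-0.069). Medians of related lists depend on the minimum: with at least 200 counts the B12 list stood at 0.29 (4 genes), the folate list at -0.023 (5 genes) and the clathrin list at -0.020 (19 genes). Using the union of coding exons, all 20 levels per kb stayed within their counting intervals. The few counts of Lrp2 and Cd320 limit their ratios. No paired analysis was possible because each condition has 1 library and the labels give no replicate numbers.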
